A study of Drosophila melanogaster with 4 samples.

Results

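Chromosome arm 3R, the right arm of the third chromosome of Drosophila melanogaster, held 3026 of the 12968 H3K27me2 regions called in ChIP replicate 1. It held 2705 of 11483 regions in replicate 2, and 3771 of 17184 in the authors' list for the replicate set, called the combined list below. Members were taken as every region that the 3 deposited lists place on 3R, with no filter on score or width. The samples came from wild-type embryos of the strain Oregon-R-modENCODE, 14 to 16 h old, which are whole embryos and so a mixture of cell types. They form a ChIP group and an input group, namely 2 chromatin immunoprecipitation and sequencing (ChIP-seq) samples with the antibody Ab24684 against H3K27me2, and 2 input samples, which have no region list here. All groups share strain, genotype and stage, so the comparisons are between positions on the chromosome and between replicates, not between conditions.

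H3K27me2 is the dimethylated form of a lysine in the tail of histone H3. Polycomb repressive complex 2, whose catalytic subunit in flies is Enhancer of zeste, adds the methyl groups one after another. In flies the dimethyl form is widespread over inactive euchromatin and scarce over transcribed genes, whereas the trimethyl form, H3K27me3, collects in broad domains over Polycomb target genes. The arm 3R carries both fly Hox complexes, the Antennapedia complex and the bithorax complex, which are classical Polycomb targets. It is attached to the centromere at its low coordinates (the proximal end) and ends in the telomere at its high coordinates (the distal end).

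Positions are those of FlyBase release 5, as the file headers give them. The lists give positions and a score for each region but no read counts, so the sequencing depth is unknown, and sequence outside every region is termed uncalled. Scores are the authors' own values on a scale that the headers do not name. They are used here only as percentiles, the position of a region among all regions of the same list from 0 (lowest) to 100 (highest). The labels do not tell whether both ChIP samples were made from 1 collection of embryos or from several, and their spread may be technical. With 2 replicates, the smallest p of an exact sign-flip permutation test is 0.5. Differences are therefore given for each replicate without a test.

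The first question was how much of 3R was called, and in what pieces. In replicate 1 regions covered 8.53 Mb, or 30.6% of the arm, and in replicate 2 they covered 6.69 Mb, or 24.0%. The combined list covered 13.5 Mb, or 48.4%. The replicates averaged 27.3% ± 4.66 (SD, n = 2). Region density was 108 per Mb in replicate 1 and 96.9 per Mb in replicate 2. The lower coverage of replicate 2 thus went with fewer regions and with narrower ones, since the median width was 2000 bp there and 2153 bp in replicate 1. In replicate 1 the widest 10% of regions exceeded 4894 bp and the widest single region spanned 25459 bp. The same values for replicate 2 were 4219 and 15533 bp. No region on 3R was narrower than 1301 bp in either replicate or than 1001 bp in the combined list.

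Narrow regions took a smaller share of the covered sequence than of the regions. Regions under 2 kb made up 40.8% of the regions of replicate 1 and 49.9% of those of replicate 2, but 23.6% and 32.5% of the covered length. Those from 2 to 4 kb took 40.9% and 41.3% of the covered length in replicates 1 and 2, and those from 4 to 10 kb took 30.8% and 24.4%. Replicate 1 had 31 domains of 10 kb or more and replicate 2 had 10. The combined list had 188, which took 19.6% of its covered length. Score rank went with width: the median percentile was 18.2 under 2 kb and 86.6 at 10 kb or more in replicate 1, and 21.9 and 86.1 in replicate 2. Across regions, Spearman's rho of width and score was 0.727 in replicate 1 and 0.657 in replicate 2, a description over regions of the same library.

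**Figure D1:**
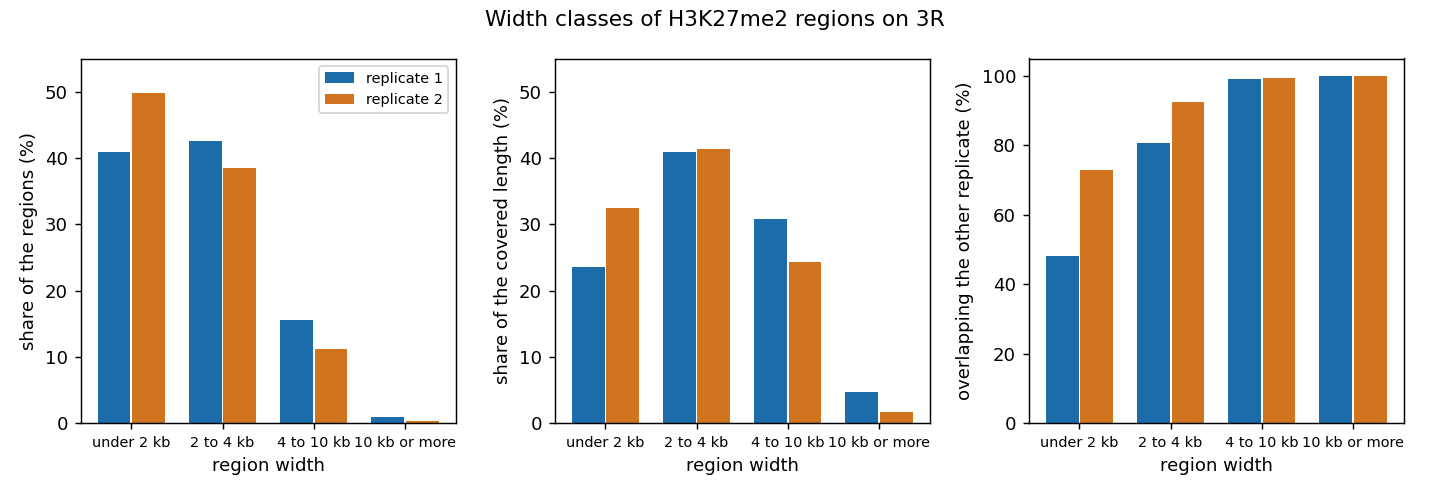
Width classes of the 3R regions in both replicates. Bars give the share of the regions (left), of the covered length (middle) and the share overlapping the other replicate by at least 1 bp (right), in percent. The right panel starts at 48.3% in replicate 1 and 73.0% in replicate 2 under 2 kb and reaches 100% at 10 kb or more. A wider region is more likely to overlap by 1 bp by construction.

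Spacing was strongly skewed. The median distance between neighbouring regions was 2536 uncalled bases in replicate 1 and 3147.5 in replicate 2. It was 1214 in the combined list. Gaps under 1 kb made up 27.5% of the gaps in replicate 1 and 23.8% in replicate 2, and 6 and 1 pairs of regions touched without a gap. At the other end, 1% of gaps were longer than 53332 bp in replicate 1 and 67191 bp in replicate 2. The longest gaps of the replicates were 349306 and 214145 bp. Neighbouring regions were hardly alike in width, with a rho of 0.103 in replicate 1 and 0.105 in replicate 2 over neighbouring pairs.

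Next, 3R was set against the other major arms. It had a higher covered share than X, 2L and 3L and a lower one than 2R in both replicates. Covered shares were 30.6% on 3R and 28.6% on the other 4 arms together in replicate 1, a difference of 1.99 percentage points. In replicate 2 they were 24.0% and 22.7%, a difference of 1.24 points. The mean difference was 1.62 ± 0.532 points (SD, n = 2), and it turned to -1.24 points when regions below the median score of each list were left out. Against 3L, the other arm of the same chromosome, 3R was 1.39 points higher in replicate 1 and 0.863 points higher in replicate 2. Without the regions below the median score these differences were 0.659 points in replicate 1 and -0.263 points in replicate 2, so the direction turned in replicate 2. 3R minus 2R was -3.73 points in replicate 1 and -3.14 points in replicate 2. Median widths differed little, with 2153 bp on 3R and 2134 bp on the other arms in replicate 1, and 2000 and 2021 bp in replicate 2.

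Regions of 3R ranked lower in score than those of the other arms. Their median percentile was 43.9 in replicate 1 and 42.1 in replicate 2, against 51.8 and 52.4 on the other 4 arms. Single arms show where that difference lay: the median percentile was 68.0 on X and 53.7 on 2R in replicate 1, but 44.9 on 3L and 42.7 on 2L, close to 3R. In replicate 2 it was 73.9 on X, 50.4 on 2R, 44.8 on 3L and 43.8 on 2L. The medians of 3R, 2L and 3L thus lay below the middle of both lists, and those of X and 2R above it.

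The course along the arm was followed in 279 full windows of 100 kb, leaving out the last 5053 bp. Coverage was uneven from window to window, and the order of the windows was similar in both replicates. The covered share of a window ran from 0% to 67.6% in replicate 1 (median 30.6%) and from 0% to 62.2% in replicate 2 (median 23.9%). Spearman's rho between the replicates was 0.893 across windows, which share the genome and are not independent. Replicate 1 was higher in 244 windows, replicate 2 in 33, and 2 windows were equal at 0%. The difference, replicate 2 minus replicate 1, had a median of -6.66 points and ran from -28.2 to 11.5 points. Of the 28 most covered windows of each replicate 19 were in common, and of the 28 least covered 22 were.

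**Figure D2:**
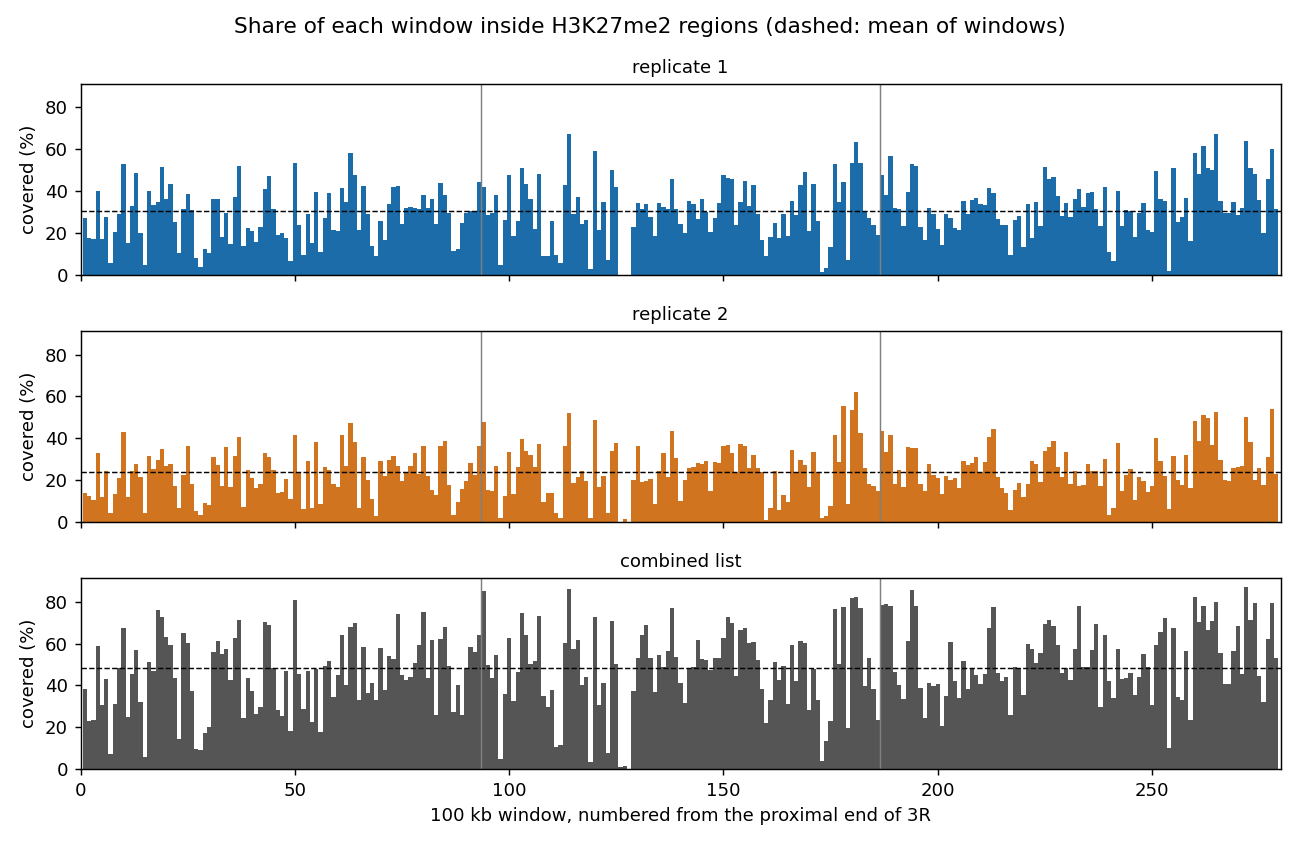
Covered share (percent) of each of the 279 windows of 3R in replicate 1, replicate 2 and the combined list, numbered from the proximal end. Grey lines separate the proximal, middle and distal 93 windows and dashed lines mark each list's mean. Gaps in the bars near windows 126 to 128 recur in all 3 lists, and several of the tallest stand near the distal end.

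**Figure D3:**
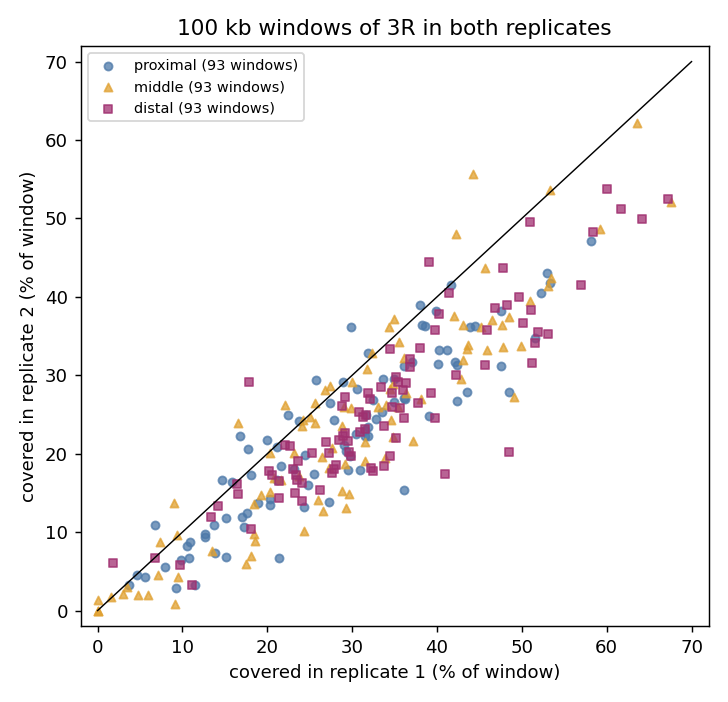
Covered share of each 100 kb window in replicate 1 (horizontal) and replicate 2 (vertical), in percent, with the line of equal values. Marks show proximal, middle and distal windows. Most windows, 244 of 279, lie below the line.

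The covered share of a window had a higher rho with the number of its regions than with their median width. Covered share and region count had a rho of 0.838 in replicate 1 and 0.891 in replicate 2, while covered share and median width had 0.386 and 0.325. Covered share and median score percentile were more loosely related, at 0.317 and 0.310. Windows with at least 3 regions entered the values for width and score, 267 in replicate 1 and 262 in replicate 2. The values for count used all 279 windows, so the rhos rest on unlike sets of windows. Count and covered share are linked by construction, and so are width and covered share.

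Neighbouring windows resembled each other only weakly on 3R. The correlation of the covered share of a window with that of the next was 0.224 in replicate 1 and 0.214 in replicate 2, and it was 0.058 and 0.081 at a distance of 2 windows. On 3L the values for the next window were 0.491 and 0.451, on X 0.403 and 0.338, on 2L 0.339 and 0.344 and on 2R 0.313 and 0.327. In both replicates 3R was the lowest of the 5 arms. These are descriptions over windows, and the difference between arms was not tested.

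By the mean of both replicates, the 5 most covered windows lay in the middle and distal parts of the arm. The window from 18.0 to 18.1 Mb had the highest mean, with 63.6% in replicate 1 and 62.2% in replicate 2, made up of 15 and 17 regions. It was followed by 26.4 to 26.5 Mb with 67.2% and 52.5%, and by 11.3 to 11.4 Mb with 67.6% and 52.1%. Next came 27.1 to 27.2 Mb with 64.1% and 50.0% and 27.7 to 27.8 Mb with 60.1% and 53.8%. In the combined list these 5 windows had between 79.2% and 87.0% of their length in regions. High and low windows could lie side by side: 11.8 to 11.9 Mb had 3.05% and 2.14%, and the adjoining 11.9 to 12 Mb had 59.2% and 48.7%, the largest step between neighbours on the arm.

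All 5 of the windows least covered by that mean lay in the middle part. From 12.5 to 12.6 Mb and from 12.7 to 12.8 Mb neither replicate had a region, and between them the window from 12.6 to 12.7 Mb had none in replicate 1 and 1 region of 1376 bp in replicate 2. The combined list had 1.01% of 12.5 to 12.6 Mb in a single region of 1011 bp, which stood at percentile 99.4 of its scores. That region was singled out after its values were seen. The other low windows were 17.2 to 17.3 Mb, with 1.57% in replicate 1 and 1.74% in replicate 2, and 11.8 to 11.9 Mb. In all, 22 windows had under 10% in both replicates, whereas 6 exceeded 50% in both.

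Long uncalled stretches underlie these windows. The longest without a region in any list ran over 188589 bp, at 3R:12615545-12804133. The third, 106503 bp at 3R:12480751-12587253, lay just proximal of it, and the 28291 bp between them held 1 region of replicate 2, 2 of the combined list and none of replicate 1. The second spanned 109265 bp at 3R:17234241-17343505, the fourth 105059 bp at 3R:11785825-11890883 and the fifth 90722 bp at 3R:25324310-25415031. Coverage beside them differed. In the 100 kb distal of the fourth, 53.6% was covered in replicate 1 and 44.9% in replicate 2, and in the 100 kb distal of the fifth 54.9% and 34.9%. The second had sparse sequence on both sides, with 11.6% and 10.4% proximally and 7.15% and 5.24% distally. There were 25 uncalled stretches of at least 50 kb on 3R, 9 of them starting in the proximal, 10 in the middle and 6 in the distal part, and 1.85 Mb in total.

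From the proximal to the distal end, coverage and score rank were higher and spacing was closer. The proximal 93 windows had 28.2% covered in replicate 1, the middle 93 had 29.7% and the distal 93 had 33.9%. In replicate 2 the shares were 22.2%, 23.7% and 26.0% in the same order, and in the combined list 45.1%, 47.2% and 52.8%. Distal minus proximal was 5.67 points in replicate 1 and 3.79 points in replicate 2, a mean of 4.73 ± 1.33 (SD, n = 2). Within each part the windows of the replicates spread over 10.8 to 15.1 points (SD over 93 windows), so the parts overlapped widely. The median gap was 2195 bp distally and 2801 bp proximally in replicate 1, and 2932 and 3412 bp in replicate 2. Median width was 2229.5 bp distally and 2091 bp proximally in replicate 1, but nearly equal in replicate 2, at 2006.5 and 1986 bp. Domains of 10 kb or more were fewer distally than proximally in the replicates, with 9 and 13 in replicate 1 and 1 and 4 in replicate 2. In the combined list they were more frequent distally, with 80 and 49.

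**Figure D4:**
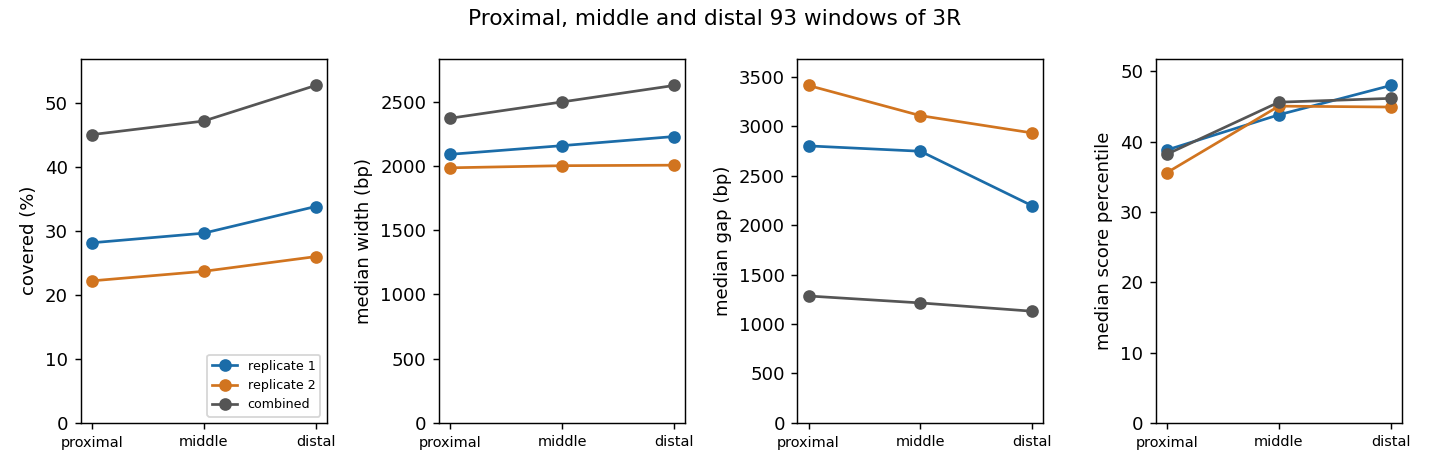
Covered share (percent), median width (bp), median gap (bp) and median score percentile in the proximal, middle and distal 93 windows, 1 line per list. Covered share climbs from left to right in each list, and the median gap shortens.

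The median score percentile was 38.8 in the proximal, 43.8 in the middle and 48.0 in the distal part of replicate 1. In replicate 2 it was 35.6, 45.1 and 44.9 in the same order, so the difference there lay between the proximal part and the rest. Distal minus proximal was 9.17 points in replicate 1 and 9.33 in replicate 2. Regions in the top 10% of scores of their list were 6.56% of the distal and 5.01% of the proximal regions in replicate 1, and 7.27% and 4.66% in replicate 2, all below the 10% of the whole list. In the combined list these shares were nearly equal, at 5.34% distally and 5.0% proximally, with 5.65% in the middle. By megabase the median percentile was lowest from 7 to 8 Mb in replicate 1, at 31.8, and from 2 to 3 Mb in replicate 2, at 27.9. It was highest from 25 to 26 Mb in replicate 1, at 59.7, and from 18 to 19 Mb in replicate 2, at 56.3. Across the 27 full megabases the rho of these medians between replicates was 0.487, and across the 261 windows of 100 kb with at least 3 regions in each replicate it was 0.444, lower than for covered share.

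**Figure D5:**
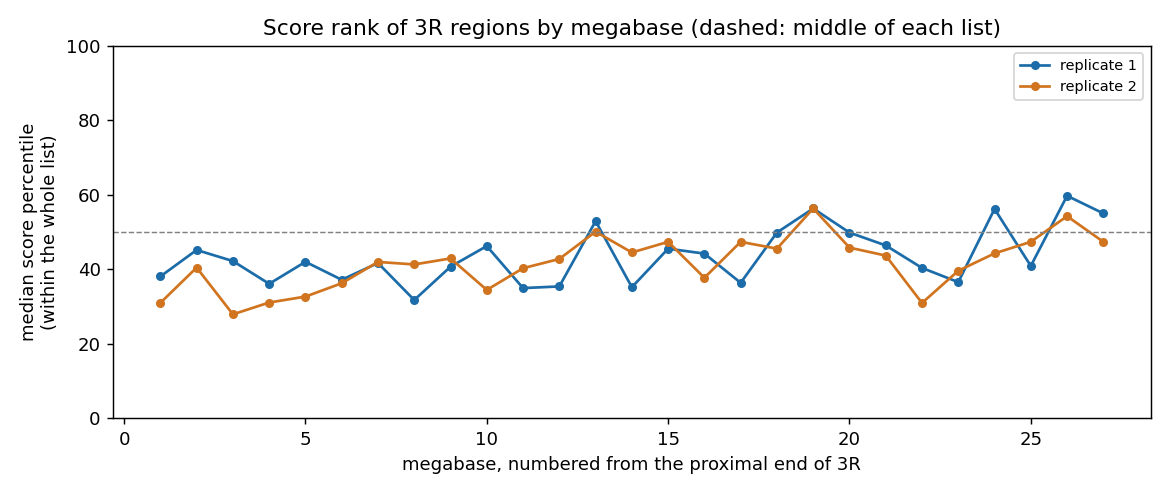
Median score percentile of the regions in each of 27 megabases of 3R, numbered from the proximal end, in both replicates. The dashed line is the middle of each list. Most points lie below it, and the replicates come together at the nineteenth megabase, at 56.3.

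A higher distal than proximal coverage was found on every major arm. When each arm was divided in the same way, distal minus proximal was 5.67 points on 3R, 9.20 on 2L, 4.16 on 2R, 3.27 on X and 2.14 on 3L in replicate 1. In replicate 2 it was 3.79 points on 3R, 7.48 on 2L, 2.47 on 2R, 2.40 on X and 1.84 on 3L. Score percentiles did not behave as uniformly, with 9.17 points on 3R and 13.1 on 2L, but 0.754 on 3L, 1.82 on X and -1.0 on 2R in replicate 1. In replicate 2 the differences were 9.33 points on 3R, 8.63 on 2L, 4.52 on 3L, 3.07 on X and 2.04 on 2R.

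The last question was how far the lists named the same regions of 3R. The replicates shared 5.11 Mb, which was 59.9% of the covered length in replicate 1 and 76.3% in replicate 2. On 3R, 2133 regions of replicate 1 (70.5%) overlapped a region of replicate 2 by at least 1 bp, where 68.8% of all its regions did. In the other direction 2262 regions of replicate 2 (83.6%) overlapped replicate 1, where 82.8% of its whole list did. Both shares were near those of the whole lists. Overlap was slightly more frequent distally than proximally, at 71.6% and 69.1% in replicate 1 and at 85.1% and 81.8% in replicate 2. It went with width, since 99.2% of replicate 1 regions from 4 to 10 kb overlapped replicate 2, but 48.3% of those under 2 kb did. An overlap of 1 bp is more likely by construction for a wider region and where the other list covers more. Both differences are therefore linked in part to width and coverage. They are given for 3R alone and are not shown to be particular to it.

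In the combined list, 1707 regions of 3R (45.3%) overlapped both replicates and 1053 (27.9%) overlapped neither, where 31.1% of the whole list overlapped neither. The share of the whole list that overlapped both is not given, so the 45.3% is not shown to be particular to 3R. The regions in both had a median width of 4421 bp and a median score percentile of 70.2. Regions in neither had a median width of 1383 bp and stood at percentile 22.4. That width is near the lower limits of the lists, as the narrowest regions were 1001 bp in the combined list and 1301 bp in each replicate. How far these unlike limits contribute to the regions in neither was not tested. Sequence outside both replicates made up 25.9% of the combined coverage of 3R.

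The widest regions of the combined list on 3R joined several regions of each replicate. The first spanned 36929 bp at 3R:6276566-6313494 and held 3 regions of replicate 1 and 6 of replicate 2, covering 99.4% and 82.7% of it. The second spanned 31291 bp at 3R:8337634-8368924, with 80.6% and 72.3% covered in replicates 1 and 2. The remaining 3, of 25943 to 27087 bp, lay at 3R:5476328-5503414, 3R:17912374-17938942 and 3R:27253290-27279232. The least covered of the 5 was the last, with 67.4% in replicate 1 and 52.2% in replicate 2. Their score percentiles ran from 73.0 to 93.1, so none of the 5 widest regions was among the top 5% of scores.

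Of the 10 regions with the top scores of 3R, 5 from each replicate, 9 overlapped a region of the other replicate. Over the whole lists 68.8% of replicate 1 regions and 82.8% of replicate 2 regions did. With 10 regions, the count cannot be set apart from those shares. In replicate 1 the highest was at 3R:23119719-23124691, 4973 bp wide, at percentile 99.1 and 115th of the list, and the region of replicate 2 over it stood at percentile 91.6. The next 2, at 3R:16997601-17002021 and 3R:17104101-17107668, were matched in replicate 2 at percentiles 97.7 and 97.2. The fourth, at 3R:16478762-16483304, was matched at 78.7 and the fifth, at 3R:24347498-24354097, at 95.4. In replicate 2 the highest was at 3R:17828934-17832642, 3709 bp wide, at percentile 99.4 and 75th of the list, matched in replicate 1 at 96.9. It was followed by regions at 3R:18839498-18843202, 3R:27713614-27714953, 3R:15839253-15843512 and 3R:19895556-19898290. Of these, the second was matched in replicate 1 at percentile 92.8, the fourth at 98.3 and the last at 60.0. The third, only 1340 bp wide, had no overlapping region in replicate 1.

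No region of 3R found in 1 replicate alone was wider than 4978 bp. By construction, a wider region is less likely to lack an overlap of 1 bp. The widest of replicate 1 spanned 4768 bp at 3R:13963149-13967916, 4658 bp at 3R:2101118-2105775 and 4442 bp at 3R:23149833-23154274, at percentiles 77.2, 55.5 and 52.9. Those of replicate 2 spanned 4978 bp at 3R:13661582-13666559, 4250 bp at 3R:4798521-4802770 and 3828 bp at 3R:14362331-14366158, at percentiles 62.4, 28.2 and 67.7. Each was at least 72.6% covered in the combined list. Score ranks were not continuous: 34.6% of the 3R regions of replicate 2 shared their exact score with another 3R region, and 81 of them shared a single score at percentile 47.4. In replicate 1 the share was 23.5%, and the largest group with 1 score held 17 regions.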

How the data were processed

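H3K27me2 ChIP-seq of whole Oregon-R-modENCODE embryos is represented by 3 deposited region lists, 1 per ChIP replicate and 1 for the replicate set. The deposited values are a score per region, as the authors made it, on a scale that no header or label names. The submitters' processing notes name Bowtie 0.12.7, and per the file headers the coordinates are those of FlyBase release 5. No region caller, threshold or pooling step is named in the labels or headers. Mapping settings, unsequenced bases and repeats can lower coverage and were not measured here. Per the labels, the input numbered 1 belongs to ChIP replicate 2 and the other input to ChIP replicate 1.

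Covered share is the length inside regions divided by the scaffold length, and regions entered a window by their midpoint for counts, widths and percentiles. Percentiles use mid-ranks within the whole list. Named windows and regions followed a rule: the 5 highest and 5 lowest windows by the mean covered share of both replicates, the 5 widest combined regions, the 5 top scores of each replicate, the 5 longest uncalled stretches and the 3 widest unmatched regions of each replicate. The members, the rule and the comparisons were chosen with earlier results of these data known. Steps between windows, tied scores and the ends of other arms were added after seeing values. Alternatives were score thresholds, equal numbers of regions, merging, other windows, 50% reciprocal overlap and leaving out each replicate. The gene table supplied is of release 6, so no region was assigned to a gene and no sequence is given. Depth is unknown. Software was matplotlib 3.10.9, scipy 1.17.1, pandas 2.3.3, numpy 2.4.6 and Python 3.11.15. Functions on intervals were tested on simulated data.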

Additional observations from a re-analysis of the deposited data

How the results depend on the processing

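Of 59 alternative values for 13 results on 3R, 36 stayed within the spread between replicates or within 1.5 times a count, 22 lay beyond it or had no such spread, and 1 changed sign. With 2 replicates, the value of either alone always lies within the SD around their mean. Where leaving out a replicate was judged by that spread, its place among the 36 was therefore fixed in advance and does not measure stability. When regions below the median score of each list were left out, 3R minus the other arms turned to -1.24 percentage points and 3R minus 3L was 0.198 points. The cause of the change of sign was not tested. With that cut the covered share of 3R was 15.6%, and 8 windows had no region in either replicate. Of the regions kept, 64.6% overlapped the other replicate, and the rho of window coverage between replicates was 0.805. By construction the cut lowers coverage and can only add empty windows. It also thins the list that is searched for overlaps, so the 64.6% does not show that higher-scoring regions were shared less often. In the combined list alone, chosen after seeing the data, 3R minus the other arms was 2.88 points, 3R minus 3L 1.69 points, and distal minus proximal 7.69 points for coverage and 7.94 for the score percentile. With 50 windows at each end the last 2 were 7.02 and 13.5. The score difference was 9.72 with percentiles over 3R only and 8.59 without the most covered megabase, the second chosen after seeing the data. Merging, which by construction removes gaps under 1 kb, gave a median width of 2468 bp and a median gap of 4589.5 bp. The rho of coverage was 0.886 with 50 kb windows, 0.899 with 250 kb windows and 0.899 with windows shifted by 50 kb, and that of score percentiles 0.535 with 250 kb windows and 0.433 with at least 5 regions. At 50% reciprocal overlap 53.0% of regions were shared. Among regions at or above the median width the rho of width and score was 0.342. Such a cut narrows the range of widths and can by itself lower the rho. Leaving out either replicate changed no direction, which was also fixed in advance, since it returns the value of the other replicate. Taking equal numbers of top-scoring regions left the list of replicate 2, the shorter one, unchanged by construction. No paired analysis was possible because no region list of the inputs was analysed here, so no result compares ChIP with input. Depth is unknown, so uncalled sequence is not shown to lack the mark.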
